A study of Homo sapiens with 12 samples.

Results

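The hnRNP and SR splicing factor genes are 32 genes for nuclear proteins that bind pre-mRNA, chosen by symbol: 18 hnRNP genes, the 12 SRSF genes and TRA2A and TRA2B. They were looked up in the authors' deposited tables of polyadenylation, cryptic site and splicing changes after TDP-43 knockdown, which together name 4719 distinct genes. Of the 32, 20 were listed in at least 1 table and 12 in none. Of RefSeq protein-coding genes, unexpressed genes included, 21.6% were listed in at least 1. The members were chosen with earlier results of these data known, so this contrast and those below are not tests of enrichment.

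The neurons were made from WA01, a human embryonic stem cell line, by induced overexpression of NGN2, a transcription factor that drives stem cells to a cortical neuron fate. They received TDP-43 shRNA (shTDP-43, genotype TDP-43 knockdown) or scrambled shRNA (shControl, genotype WT) for 7 days, and the NGN2 treatment is common to both groups. The labels do not give a clone or a selection step. TDP-43, the product of TARDBP, is itself an hnRNP-like nuclear protein that binds UG-rich RNA and leaves the nucleus of affected neurons in amyotrophic lateral sclerosis and frontotemporal dementia. Each group had 3 RNA-seq libraries and as many libraries from 3' end-seq, an assay (QuantSeq REV kit) that reads where transcripts end, 12 libraries in all. All come from a single cell line, and the labels do not say whether replicates were separate cultures. Any spread between libraries may thus be technical only. The test behind the authors' polyadenylation p-values is not named in the labels, so these p-values may not measure spread between libraries at all. The tables used give a comparison between groups and no value per library, so no spread between replicates and no sequencing depth can be given. Expression was not analysed here, so neither the depletion of TARDBP RNA nor neuronal markers were checked. The libraries are bulk, so a change in all cells and a change in some of them cannot be told apart.

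SR proteins carry RNA recognition motifs and a tail rich in arginine and serine, bind exonic enhancers and generally help the spliceosome to use nearby splice sites. hnRNP proteins coat nascent transcripts and often act against splice site use, so the balance between the families sets the outcome at many exons. Many of these genes regulate their own transcripts through exons that carry stop codons and through the choice of 3' end, which ties splicing, polyadenylation and RNA decay together.

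Sequence is shown for HNRNPUL1, because its changed splicing cluster is the only cluster of the members whose 5' splice sites fell inside the RefSeq sequence around transcription starts, and because its introns open after different RefSeq starts. HNRNPUL1 encodes a nuclear RNA-binding protein related to hnRNP U. The first 2 of its RefSeq starts are printed below (GRCh38.p14, plus strand), each from 250 bases before the start to the first 30 transcribed bases. Capitals mark the first transcribed base and, in the upstream window, also the GT that opens the first intron. The upstream window is chr19:41262307-41262586 and the downstream window is chr19:41264122-41264401.
HNRNPUL1 start 1: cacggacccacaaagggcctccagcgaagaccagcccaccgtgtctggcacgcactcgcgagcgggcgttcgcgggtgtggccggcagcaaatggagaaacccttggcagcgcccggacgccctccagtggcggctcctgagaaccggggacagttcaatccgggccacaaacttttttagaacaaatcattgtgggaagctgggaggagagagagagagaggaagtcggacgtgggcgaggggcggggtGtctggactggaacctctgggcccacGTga
HNRNPUL1 start 2: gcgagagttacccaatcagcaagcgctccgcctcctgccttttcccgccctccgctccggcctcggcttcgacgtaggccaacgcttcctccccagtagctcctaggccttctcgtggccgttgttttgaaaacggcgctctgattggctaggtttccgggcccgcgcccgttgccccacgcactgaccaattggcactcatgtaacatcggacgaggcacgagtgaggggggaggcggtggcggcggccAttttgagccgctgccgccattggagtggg

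The starts lie 1815 nt apart. The upstream window was 63.6% G or C with 22 CG dinucleotides, and the downstream window 64.3% with 27, against a median G or C content of 58.2% over all 35116 RefSeq start windows of the same 280 bases. The repeat GTGTGT, the DNA form of the UG repeats that TDP-43 is known to bind, was on neither strand of either window. On the transcribed strand 6.75% of all windows hold it, and on either strand 12.6%. In each window 250 bases precede the start, and the introns were not searched in full. Binding of TDP-43 to HNRNPUL1 RNA was thus not tested.

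The remaining 5' splice sites of the cluster that the reference covers lay next to the start at 41265081, 2524 nt past the upstream start. With the 5' splice site of the upstream start beside them, their sequences show an exon end followed by GT, which is in capitals.
chr19:41262571-41262594 (annotated): ctctgggcccacGTgagtgtctgt
chr19:41264974-41264997 (unannotated): tcctgacactcaGTgcagggggga
chr19:41265110-41265130 (unannotated): gaagaacaagagGTtttccgt

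The first of these reads GTgag after the exon, the usual start of an intron, and the other sites do not continue in that way. Over the whole splicing table, 308 distinct 5' splice sites fell inside such RefSeq windows, and 306 of them were followed by GT and 2 by GC. The 5' splice site coordinates of the splicing table are therefore the last base of the exon before an intron. The 3' splice site coordinates were read as the first base of the exon after it, without a check by sequence. Exon lengths below are counted on that basis.

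Transcripts of the hnRNP and SR genes that changed in 3' end-seq mostly ended farther downstream after TDP-43 knockdown, and SRSF7 was the exception. The authors' deposited table listed 8 members, 7 longer and 1 shorter, while 84.7% of all 2220 listed genes were longer. The members' share longer is thus close to that of the table as a whole. The 8 are 25.0% of the 32 members, beside 9.47% of the 20056 RefSeq protein-coding genes. That background holds genes these neurons do not express, the number of genes the authors tested is not known, and expression was not used here, so the part of expression level in this difference was not tested.

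The size of a change is the authors' change of a polyadenylation usage index, in the knockdown relative to the control, and a positive value means more use of the downstream site. Among the hnRNP genes, HNRNPUL2, a relative of HNRNPUL1, had the largest change at 0.169 (adjusted p = 7.01e-257 in the authors' deposited table). HNRNPR, which binds RNA in the nucleus and in axons, followed at 0.158 (adjusted p = 3.79e-241 in the authors' deposited table). HNRNPA0, which binds AU-rich elements in the 3' end of mRNAs, was longer by 0.154, with an adjusted p given as 0 in the authors' deposited table. HNRNPLL, known for the splicing of CD45 in activated T cells, was longer by 0.135 (adjusted p = 7.37e-29 in the authors' deposited table). HNRNPDL, a close relative of the mRNA stability factor HNRNPD, had the smallest change at 0.105 (adjusted p = 1.54e-182 in the authors' deposited table). Of listed genes, 1.71% had a smaller change. HNRNPDL thus lay just above the smallest size listed for any gene, whatever its adjusted p. The authors do not state whether a size cutoff was applied.

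Among the SR genes, SRSF12, an SR protein known as an antagonist of other SR proteins, was longer by 0.308 (adjusted p = 1.45e-89 in the authors' deposited table). This was the largest change of any member, and 79.2% of listed genes had smaller changes. SRSF5 was longer by 0.132 (adjusted p = 1.15e-266 in the authors' deposited table). SRSF7 links splicing to mRNA export and is known to affect polyadenylation site choice. It was shorter at -0.118 (adjusted p = 1.58e-40 in the authors' deposited table), and 8.29% of listed genes had smaller changes. The listing of SRSF7 as the exception, like that of HNRNPDL, thus rests on a change near the smallest size listed.

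**Figure D1:**
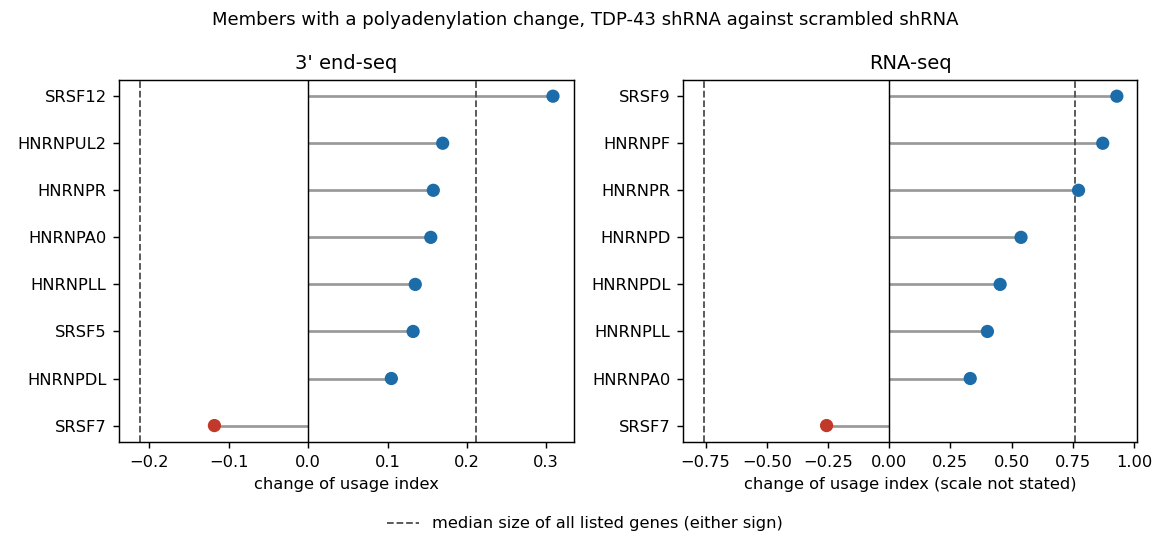
Change of the polyadenylation usage index for each listed member (TDP-43 shRNA against scrambled shRNA) in 3' end-seq on the left and RNA-seq on the right, with 1 point per gene from the authors' tables; dashed lines give the median size over all listed genes. SRSF12 in 3' end-seq and HNRNPR, HNRNPF and SRSF9 in RNA-seq exceed that median, and SRSF7 is the member below 0 in both.

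The members' changes were smaller than is typical of the genes listed. The median size was 0.145 over the 8 members and 0.212 over all 2220 genes, and 7 of the 8 lay under the median of all genes. The authors do not state the scale of the index. It can be read through the 199 sites for which the cryptic site table also gives usage: the difference in usage between the groups was within 0.02 of the index change at 181 of them, with a Pearson's r of 0.993 across sites, which share libraries and are not independent. At these sites a change of 0.15 therefore corresponds to about 15 percentage points of the gene's 3' ends.

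The rising site was within 10 nt of the RefSeq gene end in 5 of 7 lengthened members, close to the 64.1% of the 1774 longer genes that could be placed. In SRSF12 the use moved 2534 nt downstream to 89095959 on the minus strand of chromosome 6, exactly the RefSeq end. In HNRNPR it moved 5095 nt, the longest shift of any member, to 23304691 on the minus strand of chromosome 1, which is 3 nt before the end. HNRNPUL2 moved 2114 nt to 62712636 on chromosome 11 (minus strand), HNRNPLL moved 1530 nt to 38561978 on chromosome 2 (minus strand), and SRSF5 moved 334 nt to 69772004 on chromosome 14 (plus strand).

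HNRNPA0 and HNRNPDL shifted between sites that both lie well inside the gene. In HNRNPA0 the rising site at 137751385 on chromosome 5 lay 1232 nt past the falling site and still 5734 nt before the RefSeq end. In HNRNPDL the rising site at 82423203 on chromosome 4 lay 1426 nt past the falling site and 639 nt before the end. SRSF7 moved the other way: the site that fell, at 38743604 on the minus strand of chromosome 2, is 5 nt before the RefSeq end, and the site that rose, at 38744895, lies 1291 nt upstream of it. The median distance between the sites was 1530 nt in the 7 longer members and 2555 nt in all longer genes.

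**Figure D2:**
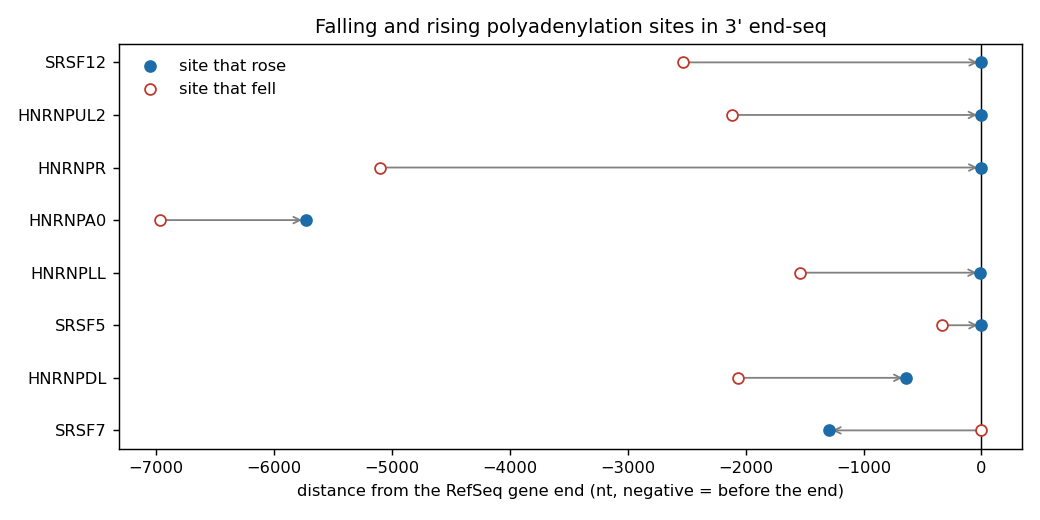
Position of the falling site (open) and the rising site (filled) of each listed member in 3' end-seq, as distance in nt from the RefSeq gene end at 0; arrows run from the falling to the rising site. Arrows of 5 genes end within 10 nt of the gene end, those of HNRNPA0 and HNRNPDL end before it, and that of SRSF7 points upstream.

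HNRNPR and HNRNPA0 were the members with a cryptic polyadenylation site, the authors' term for sites little used in control neurons. Usage of the HNRNPR site was 19.6% in TDP-43 shRNA neurons and 4.38% in scrambled shRNA neurons, and usage of the HNRNPA0 site was 19.6% in TDP-43 shRNA neurons and 4.93% in scrambled shRNA neurons, as given in the authors' deposited table. The knockdown value was thus 4.47 times the control value for HNRNPR and 3.97 times for HNRNPA0. Both were marked as 3'UTR sites and not as premature, and both are the rising site of the gene's pair in 3' end-seq, so each is the same observation as the 3' end-seq change and adds no independent one. The table gives 1 value per group, and no error can be attached. Over all 457 sites the median usage was 19.1% in the knockdown and 3.27% in the control, and no listed site exceeded 5.99% in the control. Both members were thus close to the median after knockdown and above it in control neurons. The 2 genes are 6.25% of the members, beside 1.94% of RefSeq protein-coding genes, unexpressed genes included. The HNRNPR site, called cryptic, lies 3 nt from the end of the RefSeq gene.

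In RNA-seq most listed members used distal sites more, and SRSF7 was again the exception. The authors' deposited table listed 8 members, 7 distal and 1 proximal, while 95.0% of the 841 listed genes were distal. Distal is read as more use of the downstream site in the knockdown, because the direction of subtraction is not given with the values. The index here is on another scale than in 3' end-seq, so the values of the assays are not compared by size. The 8 are again 25.0% of the members, beside 4.07% of RefSeq protein-coding genes, with the same limit on that background as in 3' end-seq.

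SRSF9, an SR protein with a short arginine and serine tail, led the members at 0.930 (adjusted p = 0.0220 in the authors' deposited table). HNRNPF, which binds runs of G, followed at 0.873 (adjusted p = 0.0370 in the authors' deposited table). HNRNPR was distal at 0.774 (adjusted p = 3.94e-06 in the authors' deposited table). HNRNPD, also named AUF1 and known for the decay of AU-rich mRNAs, was distal at 0.539 (adjusted p = 0.0139 in the authors' deposited table).

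HNRNPDL was distal at 0.453 with the smallest p of the members (adjusted p = 2.80e-22 in the authors' deposited table). HNRNPLL at 0.401 (adjusted p = 0.00572) and HNRNPA0 at 0.331 (adjusted p = 8.49e-06) completed the distal members in the authors' deposited table. SRSF7 was proximal at -0.256 (adjusted p = 0.0246 in the authors' deposited table). The members' median size was 0.496, under the 0.758 of all listed genes, and 5 of 8 lay below that median.

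The assays, made on separate libraries, shared 5 members, 62.5% of those listed by each. HNRNPA0, HNRNPDL, HNRNPLL and HNRNPR were longer and distal, and SRSF7 was shorter and proximal. Over all genes the assays shared 226 names, of 2220 genes listed in 3' end-seq and 841 in RNA-seq. Of these 226, 7 were shorter and proximal. The difference between the members' overlap and that of all genes was not tested. HNRNPUL2, SRSF5 and SRSF12 were listed by 3' end-seq only, and HNRNPD, HNRNPF and SRSF9 by RNA-seq only, which does not show that the assays differ for these genes, since the values of unlisted genes are not given. Some of the members are neighbours in the genome. HNRNPD and HNRNPDL, both distal, are separated by 48572 nt on chromosome 4, and HNRNPLL and SRSF7, which changed in opposite directions, by 140670 nt on chromosome 2.

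Splicing of 11 members changed, each by a small amount. The authors' deposited table, from leafcutter, groups introns that share a splice site into clusters, gives an adjusted p per cluster and a change of share per intron but no p per intron. It held 12 clusters of the members among 2994, with 2 in HNRNPH1. The largest change in any member was 7.3 percentage points, and the median over the 12 clusters of each cluster's largest change was 4.6 points, beside 6.4 over all clusters. No member's cluster reached 10 points, beside 33.0% of all clusters. The 11 genes are 34.4% of the members, beside 11.2% of RefSeq protein-coding genes, unexpressed genes included. Positive values are read as more use in the knockdown, because the STMN2 junction known to appear on TDP-43 loss gained 44.9 points in the authors' deposited table. The same junction was also listed in a cluster labelled with the minus strand, at 54.2 points in the authors' deposited table. The counts over all clusters can therefore hold the same junction more than once. The authors do not state the sign.

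TRA2B, a splicing activator related to SR proteins, had the largest change, in a cluster that begins 189 nt into the gene (adjusted p = 0.00383 in the authors' deposited table). A junction into an unannotated 3' splice site at 185931852 on chromosome 3 gained 7.3 points, and the annotated junction that skips that position, from 185937825 to 185926734, changed by -5.8 points in the authors' deposited table. The junction out of the same segment, from 185931577, gained 0.6 points and is marked as having an unannotated 5' splice site. The segment between them is 276 nt long. The gain was thus much larger on the entry side than on the exit side. The junction from 185934429 into 185931852, with both splice sites unannotated, changed by -0.2 points in the authors' deposited table. TRA2B is known to hold an exon with stop codons near its start that its own protein activates. No exon annotation was used here, so whether this segment is that exon was not tested.

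SRSF11, an SR-related protein, changed near its end, 87.0% of the way along the gene (adjusted p = 0.000754 in the authors' deposited table). The annotated junction from 70246907 to 70249952 on chromosome 1 changed by -6.9 points in the authors' deposited table. Junctions into and out of a 33 nt segment gained 5.4 points (into an unannotated 3' splice site at 70247117) and 3.2 points (out of an unannotated 5' splice site at 70247149) in the authors' deposited table. Junctions of an unannotated segment thus gained share while the annotated intron that spans it lost share. An unannotated 3' splice site 21 nt before the annotated 3' splice site changed by -1.7 points from the upstream exon, and its junction from the segment, unannotated at both ends, by 0 points, in the authors' deposited table.

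In SRSF3, SRSF6 and SRSF7 the gain was in an annotated junction. SRSF3, the smallest SR protein, gained 4.1 points in the junction that skips a 456 nt segment, and the junction into it changed by -2.3 and the junction out of it by -1.9 points (chromosome 6, cluster adjusted p = 0.0469 in the authors' deposited table). SRSF3 is known to carry an exon with stop codons that it splices in to limit its own level, and whether the skipped segment is that exon was not tested. SRSF7 gained 4.7 points in the annotated intron from 38748579 to 38748157 and lost the same from an intron that runs 1422 nt farther, to an unannotated 3' splice site (cluster adjusted p = 0.00224 in the authors' deposited table). SRSF6, known to act in alternative splicing of tau, shifted by 6.2 points between 3' splice sites 6 nt apart, toward the annotated site and away from the unannotated site (cluster adjusted p = 0.0372 in the authors' deposited table). Unannotated junctions therefore lost share in SRSF6 and SRSF7.

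SRSF5 and SRSF10 changed least among the SR genes. SRSF5, whose cluster begins 109 nt into the gene, gained 2.1 points from an unannotated 5' splice site at 69767987 and changed by -2.5 points at the annotated 5' splice site at 69767251 (cluster adjusted p = 0.00931 in the authors' deposited table). A further unannotated 5' splice site 4 nt past the annotated position gained 0.4 points in the authors' deposited table. SRSF10, an SR protein known to repress splicing when dephosphorylated, had 8 introns in its cluster (adjusted p = 0.00468 in the authors' deposited table). The annotated intron from 23971573 to 23971439 on chromosome 1 changed by -3.1 points, and the introns from the same 5' splice site to 23967723 and 23967956 gained 1.9 and 1.2 points in the authors' deposited table. SRSF10 thus moved from a nearby 3' splice site to distant ones, all of them annotated.

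**Figure D3:**
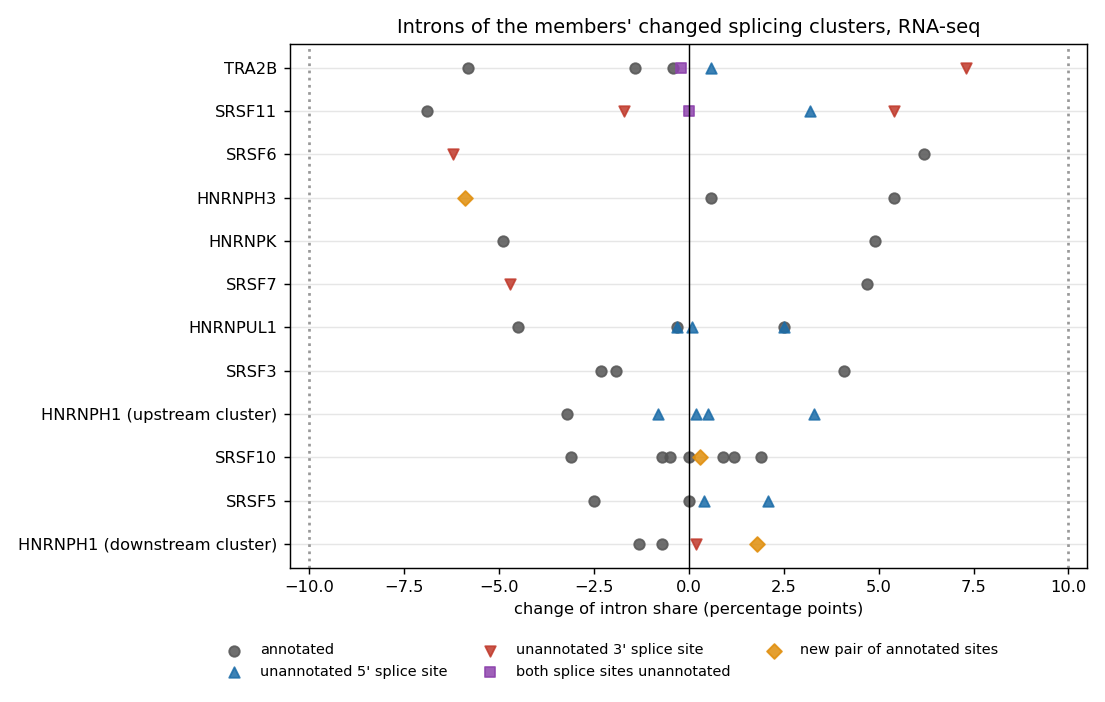
Change of share, in percentage points, of every intron in the 12 changed splicing clusters of the members (TDP-43 shRNA against scrambled shRNA, RNA-seq), with 1 point per intron, the marker giving the authors' annotation class and dotted lines 10 points from 0. All 50 introns changed by less than 10 points in either direction, with TRA2B highest at 7.3 and SRSF11 lowest at -6.9.

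Among the hnRNP genes, HNRNPUL1 changed in the introns that follow its alternative starts (cluster adjusted p = 0.000729 in the authors' deposited table, the smallest of the members). All 6 introns of the cluster end at the same 3' splice site, 41268223 on chromosome 19. The intron that opens 26 nt into the transcript of the upstream start, at the GT in the first window printed above, changed by -4.5 points in the authors' deposited table. The 3 introns that open between the start at 41264372, whose window is the other printed above, and the start at 41265081 summed to a gain of 5.1 points. They were an unannotated 5' splice site at 41264692 and an annotated one at 41264798, with 2.5 points each, and the unannotated site at 41264985 with 0.1 points, in the authors' deposited table. The introns past the start at 41265081, 1 of them unannotated (at 41265121), changed by -0.3 points each in the authors' deposited table. Junctions after the upstream start thus lost share and junctions after the downstream start gained it. Splice junctions do not show where a transcript began, so which start was used was not measured.

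**Figure D4:**
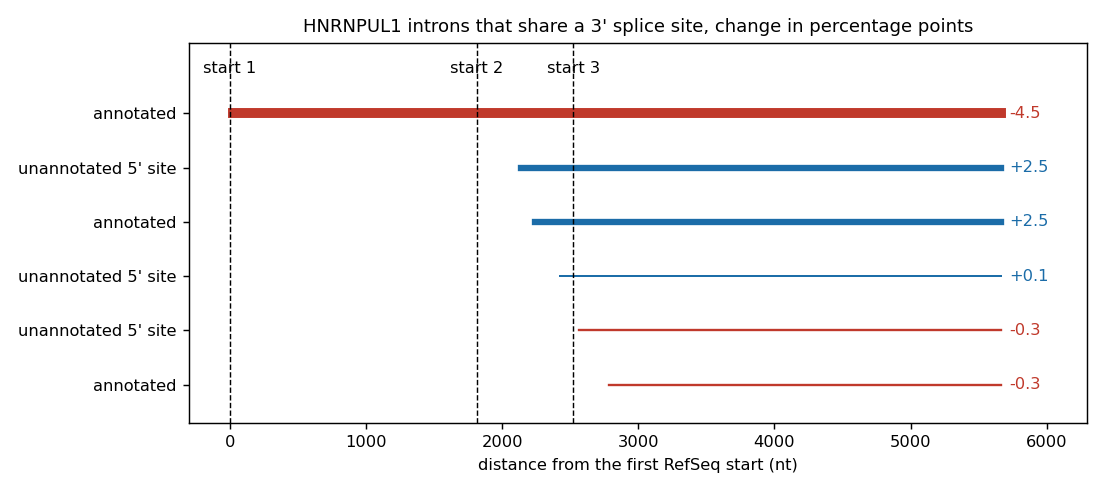
The 6 HNRNPUL1 introns that share a 3' splice site, drawn to scale by distance in nt from the first RefSeq start, with dashed lines at the 3 RefSeq starts, line width growing with the size of the change, and the change in percentage points at the right. The intron after start 1 is at -4.5, and the introns after start 2 are at 2.5, 2.5 and 0.1.

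HNRNPH1, which binds runs of G, was listed with separate clusters near its 3' end. In the upstream cluster an unannotated 5' splice site at 179617021 on chromosome 5 gained 3.3 points and the annotated site at 179616869 changed by -3.2 points (adjusted p = 0.00515 in the authors' deposited table). Of the other unannotated sites, 179617027 gained 0.5, 179616860 gained 0.2 and 179616899 lost share at -0.8 points, per the authors' deposited table. In the downstream cluster a junction that skips a 50 nt segment, joining annotated sites in a new pair, gained 1.8 points, and the junctions into and out of the segment stood at -1.3 and -0.7 points (adjusted p = 0.0366 in the authors' deposited table). An unannotated 3' splice site at 179614777 gained 0.2 points in the authors' deposited table. HNRNPH1 thus gained unannotated or newly paired junctions in both clusters, in small amounts.

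HNRNPH3 and HNRNPK had their largest gains in annotated junctions. HNRNPH3, a relative of HNRNPH1, lost 5.9 points from a new pair of annotated sites that skips a 139 nt segment, and the junctions into and out of the segment gained 0.6 and 5.4 points (chromosome 10, adjusted p = 0.0176 in the authors' deposited table). HNRNPK, which binds runs of C, shifted 4.9 points between annotated 3' splice sites 60 nt apart, away from 83969380 and toward 83969440 on chromosome 9 (adjusted p = 0.0210 in the authors' deposited table). In both clusters the intron with the largest gain was annotated. Of the segments named so far, those of TRA2B, SRSF11 and SRSF3 have lengths divisible by 3, and those of HNRNPH1 and HNRNPH3 do not. No coding annotation was used, so whether a segment keeps the reading frame or holds a stop codon was not tested.

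Annotated and unannotated junctions led the gains about equally often. The largest gain in a cluster was an intron not marked annotated in 5 of 12 clusters, an annotated intron in 6 and a tie in 1, beside an intron not marked annotated in 45.4% of all 2994 clusters. The authors marked 10 of the 12 clusters as cryptic, beside 88.8% of all. Summed over each cluster, introns not marked annotated gained in 7 clusters and lost in 3 (SRSF6, SRSF7 and HNRNPH3), while over all clusters they gained in 55.0% and lost in 33.5%. These shares are near those of all clusters, and the difference was not tested.

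Both families were listed for both kinds of change. Among the 18 hnRNP genes, 7 had a polyadenylation change and 4 a splicing change, and 0 had both. Among the 12 SRSF genes, 4 had a polyadenylation change and 6 a splicing change, and SRSF5 and SRSF7 had both. Of RefSeq protein-coding genes, unexpressed genes included, 13.2% had a polyadenylation change listed and 2.76% had both kinds. The difference between the families rests on few genes and was not tested. TRA2B had a splicing change. SRSF7 was the only member in the 3' end-seq, RNA-seq polyadenylation and splicing tables together. The members in none of the tables were HNRNPA3, HNRNPAB, HNRNPC, HNRNPH2, HNRNPL, HNRNPM, HNRNPU, SRSF1, SRSF2, SRSF4, SRSF8 and TRA2A. Their values are not given in the tables, so no statement on the absence of change follows for them.

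Genes that act with the members were looked up in the same tables. Like the members, they were chosen with earlier results of these data known. Of 101 genes in 5 lists (other hnRNP proteins, kinases, phosphatases and importers of SR proteins, SR-related proteins, recognition of splice sites by U1 and U2, and nonsense-mediated decay), 52 (51.5%) were in at least 1 table, beside 21.6% of RefSeq protein-coding genes, with the same limit on that background as for the members. In 3' end-seq 14 were longer and 1 shorter, beside 84.7% longer of all listed genes, and in RNA-seq all 12 listed were distal, beside 95.0%. SREK1, an SR-related protein, at 0.515 and GSPT1, a translation termination factor, at 0.392 led the longer genes, and PCBP3, a poly(C)-binding protein, was the shorter gene at -0.201, in the authors' deposited table. DYRK1B, a kinase, had a change of 2.36 toward distal use and EIF4A3, of the exon junction complex, of 1.46, as the authors' deposited table gives them. Cryptic sites were listed for 6 (5.94%, beside 1.94% of RefSeq protein-coding genes), with the highest knockdown usage in PCBP3 (26.7% in the knockdown, 5.60% in the control) and in SCAF4 (26.3% in the knockdown, 2.16% in the control), in the authors' deposited table.

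The largest splicing changes of these partner genes exceeded those of the members, in a set with more genes and more clusters. The partner genes had 45 clusters in 33 genes (32.7%, beside 11.2% of RefSeq protein-coding genes). Of these clusters 8 reached 10 points, beside 0 of the members' 12 and 33.0% of all clusters. The partners' share at 10 points was thus below that of all clusters. Only the intron of largest change in each cluster was ranked here. An intron of RALYL, an hnRNP relative, gained 21.5 points in the authors' deposited table. In SNRNP70, the U1 protein that contacts SR proteins, an intron gained 19.2 points in the authors' deposited table. Among clusters where the ranked intron lost share, SRRM3 at -15.4 and SRRM4 at -11.0 led in the authors' deposited table. SRRM3 and SRRM4 promote neuronal microexons. Losses inside clusters led by a gain were not ranked. Each of the 5 lists had from 4 to 8 genes with a changed cluster, to be read against the same 11.2%: 8 of 18 other hnRNP genes, 5 of 18 kinase, phosphatase and import genes, 8 of 24 SR-related genes, 8 of 21 splice site recognition genes and 4 of 20 decay genes.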

How the data were processed

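The authors compared 3 libraries per group in each assay. Per the labels' protocols, RNA was taken with trizol and DNase, the SMARTer Stranded Pico kit served RNA-seq and QuantSeq REV served 3' end-seq. Priming at internal stretches of A can mimic a 3' end in the second assay, which was not tested. Named in the submitters' processing notes, without roles or versions, are the build hg38 and the tools STAR, SAMtools, fastp, Salmon and DESeq2. Which program called polyadenylation changes or cryptic sites is not stated in the labels or headers.

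The changes of the usage index and of intron share are scores deposited by the authors, the latter rounded to 3 decimals and printed as percentage points. The adjusted p-values are those the authors deposited. Usage of cryptic sites is a deposited fraction per group, printed as a percent. The number of introns per cluster is as deposited. The tables list changed items only, so the number tested is unknown, depth is unknown and no interval was computed. The gene expression table was left out, because none of its 6 value columns could be tied to a sample by a label. The planned limma test of expression was therefore not run.

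The members and lists were chosen with earlier results of these data known. Every listed member is named, with the introns of largest gain and loss per cluster and each intron with an unannotated splice site. For the 5 pathway lists together the 2 largest changes per direction and table are named. In splicing, each cluster of these lists counted through its intron of largest change only. Symbols were matched as given, and all 32 have a RefSeq gene (GRCh38.p14, the same build as hg38), from which gene ends, starts and sequences come. Counts were set beside all listed items, without a test of the list. Placement and cluster functions were tested on simulated data. Python 3.11.15, numpy 2.4.6, pandas 2.3.3 and matplotlib 3.10.9 were used.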

Additional observations from a re-analysis of the deposited data

How the results depend on the processing

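The counts of listed members were recomputed under 12 alternatives, of which 6 moved a count by over 1.5 times. At an adjusted p up to 0.01, the 8 members in RNA-seq polyadenylation became 4 (HNRNPA0, HNRNPDL, HNRNPLL and HNRNPR, so without SRSF7). The 11 in splicing became 7 and the 8 in 3' end-seq stayed 8. The 3' end-seq count could not move, since the largest adjusted p of its members was 7.37e-29 in the authors' deposited table. With a size of at least 0.2 in 3' end-seq 1 member was left (SRSF12), and with at least 0.5 in RNA-seq 4 were left. With a knockdown usage of at least 20% the 2 members with cryptic sites became 0, both lying just under it at 19.6%, and with an intron change of at least 10 points the splicing count became 0. Such cutoffs also remove many of all listed items. How many of all genes listed in RNA-seq polyadenylation pass an adjusted p of 0.01 is not given here. Whether the drop from 8 to 4 is particular to the members was therefore not tested. Over all listed items the median size was 0.212 in 3' end-seq and 0.758 in RNA-seq. The median knockdown usage was 19.1% and the median cluster adjusted p 0.0109, and 33.0% of all clusters reached 10 points. Matching through older symbols and identifiers, and placing clusters by RefSeq coordinates, left each count as it was. No paired analysis was possible because the tables used hold no value per library. For the same reason the alternatives planned for expression (pseudocount, filter, replicate block, leaving out each replicate) were not run.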
